A study of Mus musculus with 12 samples.

Results

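Levels of 10 long noncoding RNAs were examined in mouse endometrial cells: Pvt1, Malat1, Neat1, Gas5, Snhg1, Snhg3, Snhg5, Snhg8, Snhg12 and Dancr. They were chosen by name and found by matching Ensembl identifiers to symbols, which gave 10 of the 55385 gene rows. All 10 passed the filter on low counts. RNA sequencing had been done on 12 mRNA libraries of C57BL/6 origin in 3 groups of 4. HPmECC and mECC are endometrial cancer cell lines, and the normal group is primary cultured endometrium cells. Cancer lines with and without overexpressed Myc were part of the design, but which line carried it is not stated in the labels. The sample titles code mECC as DM and HPmECC as WT, without saying what these codes mean. Separate cultures or animals behind the 4 libraries of a group are not stated either, so the p-values cover only library-to-library spread, possibly technical.

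Long noncoding RNAs act as transcripts without being translated. Gas5, the Snhg genes and Dancr are host genes: small nucleolar RNAs, which guide chemical modification and processing of ribosomal RNA, are cut from their introns, while the spliced exons leave as a host transcript that is often degraded on ribosomes by nonsense-mediated decay. Many host transcripts begin with a tract of C and T letters, as do messengers of the translation machinery. Malat1 is an abundant nuclear RNA of splicing speckles, Neat1 is the scaffold of paraspeckles, and Pvt1 is the neighbour of the Myc oncogene, with which it is often amplified in cancers.

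The starts of the 7 host genes are shown because that tract is a feature several of them share. Each sequence is from RefSeq on GRCm38.p6, on the gene's strand, and runs from 10 bases before the annotated start for 50 bases. Capitals mark the longest run of C and T letters between 10 bases before and 30 bases after the start.
Gas5, the downstream of its 2 starts, chr1:161035156-161035205, plus strand: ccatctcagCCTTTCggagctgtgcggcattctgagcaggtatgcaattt
Snhg1, chr19:8723477-8723526, plus strand: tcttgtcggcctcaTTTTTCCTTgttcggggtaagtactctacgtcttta
Snhg3, chr4:132353647-132353696, minus strand: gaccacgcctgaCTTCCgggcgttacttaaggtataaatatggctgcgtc
Snhg5, chr9:88522858-88522907, minus strand: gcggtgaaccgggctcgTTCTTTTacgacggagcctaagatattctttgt
Snhg8, chr3:123508297-123508346, minus strand: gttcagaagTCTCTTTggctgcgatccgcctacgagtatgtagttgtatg
Snhg12, chr4:132308668-132308717, plus strand: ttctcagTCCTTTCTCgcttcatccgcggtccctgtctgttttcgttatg
Dancr, chr5:74093050-74093099, plus strand: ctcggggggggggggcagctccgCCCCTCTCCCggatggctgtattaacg
The runs shown for Gas5, Snhg8 and Snhg12 cross the annotated start, and the run of Snhg3 has 5 letters. At the upstream start of Gas5, not shown, the longest run has 3 letters. A run of at least 6 letters was found in 6 of the 9 windows that the promoter table held for 8 of the 10 genes, against 35.2% of all windows in the table. The table held no entry for Pvt1 and Neat1. The letters CACGTG, which read the same on both strands, were found in 0 of the 9 windows of 300 bases, against 7.15% of all windows.

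The libraries were made with an mRNA kit, so the 3′ ends of the nuclear RNAs are also shown. Long Neat1 and mature Malat1 end without a poly(A) tail, in a genome-encoded A-rich tract that folds into a triple helix, whereas short Neat1 is polyadenylated. The 60-base ends below are from GENCODE release M21 on GRCm38, minus strand, with AATAAA or the A-rich tract in capitals.
Neat1, 3004-base isoform, chr19:5842307-5842366: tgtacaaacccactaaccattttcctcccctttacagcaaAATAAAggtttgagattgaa
Neat1, 20771-base isoform, chr19:5824708-5824767: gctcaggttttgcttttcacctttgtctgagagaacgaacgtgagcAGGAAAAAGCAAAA
Malat1, A-rich tract, chr19:5795982-5796041: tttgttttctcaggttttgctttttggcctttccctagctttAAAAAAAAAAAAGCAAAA
Malat1, annotated end, chr19:5795690-5795749: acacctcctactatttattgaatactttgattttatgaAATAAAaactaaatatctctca
The annotated 6983-base Malat1 transcript runs 292 bases past its A-rich tract and ends after an AATAAA. How much of each RNA an mRNA kit recovers was not tested, so the levels of Malat1 and Neat1 are levels in these libraries.

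Library totals lay between 16332060 and 26873582 counts, and the 10 RNAs together took 0.0479% to 0.0555% of counts in HPmECC, 0.0387% to 0.0479% in mECC and 0.0551% to 0.064% in normal libraries. Levels below are CPM (counts scaled to library size) after TMM scaling, with SD over 4 libraries. Log2 fold changes carry SE, and adjusted p-values are from edgeR's quasi-likelihood test with Benjamini-Hochberg adjustment over 15283 genes, threshold 0.05. Using library totals in place of TMM factors moved the median log2 fold change of all tested genes by 0.24 for mECC against normal, by 0.20 for HPmECC against normal and by -0.04 for HPmECC against mECC. With TMM factors 48.8% of the genes called between mECC and normal were higher, and with library totals 59.1%.

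The cultures differed in cell type markers as well. The summed level of 8 epithelial markers was 279 to 293 CPM in HPmECC, 928 to 956 in mECC and 6680 to 6940 in normal libraries, and none was at 0. All 8 were lower in HPmECC than in either other group, and 7 were lower in mECC than in normal libraries. In HPmECC the epithelial genes Epcam and Esrp1 averaged 0.34 and 0.0395 CPM. The 8 fibroblast markers summed to 8680 to 9360 CPM in HPmECC, 7550 to 8370 in mECC and 2180 to 2720 in normal libraries, with Thy1 at 0 in mECC, and 5 were higher and 3 lower in each comparison. The 8 leukocyte markers, all called lower in both lines than in normal libraries, summed to 25.5 to 29.5 CPM in HPmECC, 50.5 to 55.0 in mECC and 302 to 387 in normal libraries. Of them, Ptprc and Tyrobp were at 0 in HPmECC, and Tyrobp was at 0 in mECC. The 8 smooth muscle markers, of which all 7 tested were lower in both lines, summed to 312 to 361 CPM in HPmECC, 150 to 156 in mECC and 2680 to 3150 in normal libraries. The 8 endothelial markers summed to 26.6 to 30.5 CPM in HPmECC, 8.51 to 9.19 in mECC and 116 to 129 in normal libraries. Of the 5 tested, 3 were lower and 2 higher in HPmECC and 5 lower in mECC, and Cdh5 and Tie1 were at 0 in HPmECC. The 6 mesothelial markers summed to 47.6 to 53.1 CPM in HPmECC, 53.6 to 59.3 in mECC and 475 to 527 in normal libraries. Against normal libraries 5 were lower and 1 higher in HPmECC, and all 6 were lower in mECC. Upk1b, Upk3b and Lrrn4 were at 0 in HPmECC, and Upk1b and Wt1 were at 0 in mECC. The part of these other cells in the comparisons with normal libraries was not tested. In bulk RNA, fewer cells of a type and less RNA per cell cannot be told apart.

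Between the lines, 8 of the 10 RNAs were higher in HPmECC than in mECC, Snhg3 was lower and Dancr did not pass the test. Of all tested genes 68.3% were called in this comparison, 33.8% higher and 34.5% lower. CPM of the groups did not overlap for 4 of the 10, against 63.0% of all tested genes, and no change reached 2-fold, against 6.73% of all tested genes called at least 2-fold higher and 9.4% at least 2-fold lower. In mECC against normal libraries, 4 RNAs were higher, 3 were lower and 3 did not pass, where 86.3% of all tested genes were called, 42.1% higher and 44.2% lower. With library totals 7 were higher and 2 lower. The groups did not overlap for 6 of the 10, against 82.3% of all tested genes. At 2-fold or more 0 were higher and Malat1 was lower, against 18.4% and 22.8% of all tested genes. In HPmECC against normal libraries, 7 were higher, 2 were lower and Dancr did not pass, where 86.4% of all tested genes were called, 43.0% higher and 43.3% lower. The groups did not overlap for 8 of the 10, against 81.7%. At 2-fold or more Snhg8 was higher and Malat1 lower, against 18.5% and 23.0% of all tested genes. The share of the 10 that was called was thus near the background in the comparisons with normal libraries, and these share their normal libraries.

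**Figure D1:**
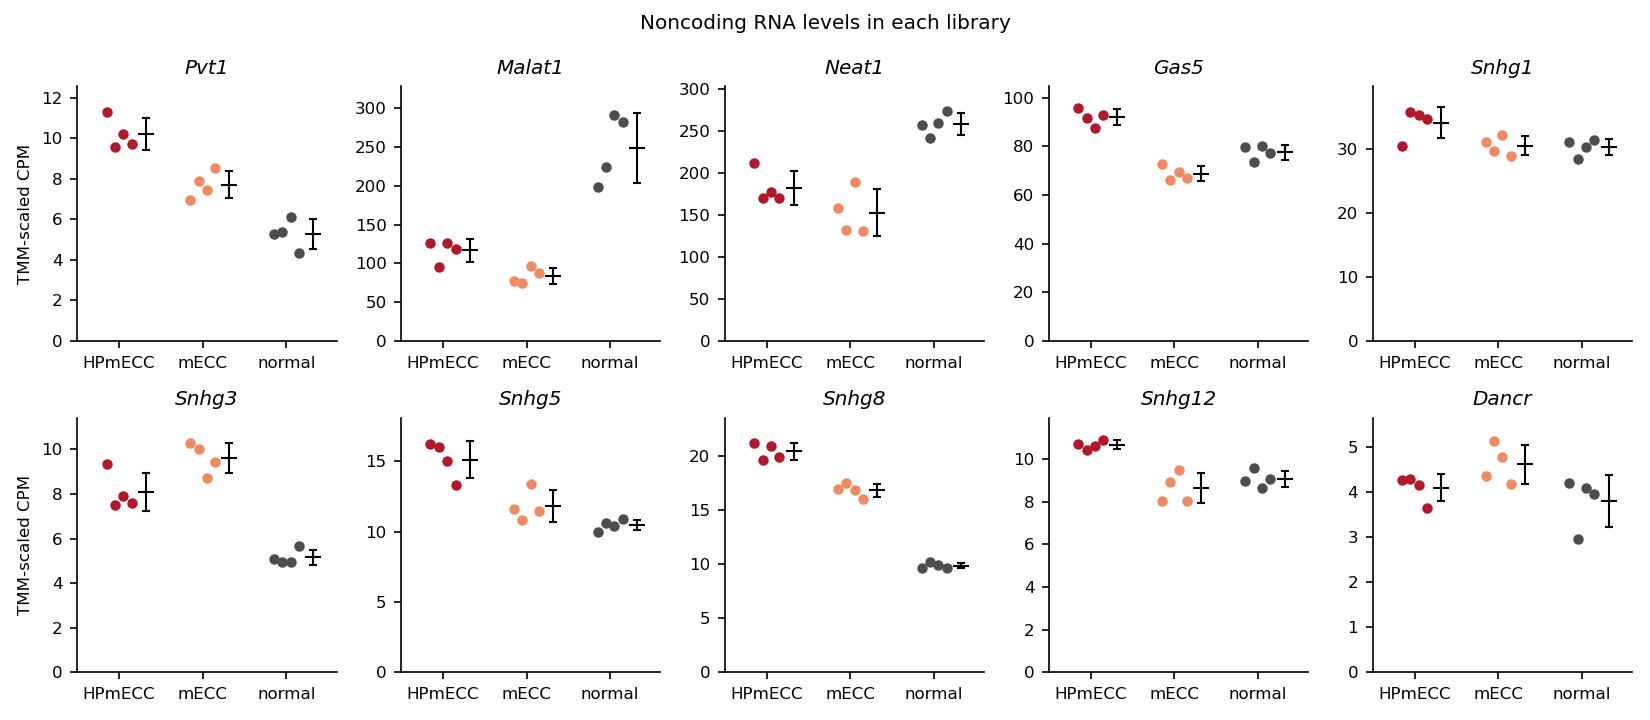
TMM-scaled CPM of the 10 noncoding RNAs in each library (points), with mean and SD beside each group of 4 and a vertical axis from 0 in every panel. Malat1 and Neat1 lie lower in both lines than in normal libraries, and Pvt1, Snhg3 and Snhg8 lie higher in both.

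**Figure D2:**
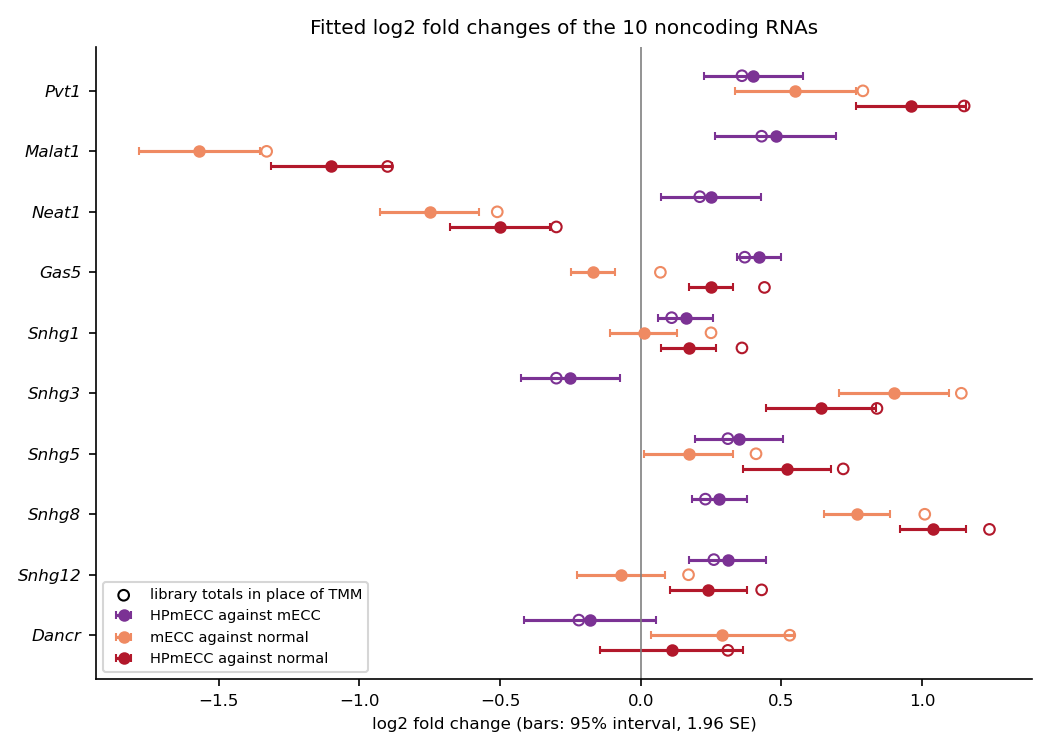
Fitted log2 fold changes of the 10 RNAs in the 3 comparisons (filled points, bars for the 95% interval) with the value under library totals (open circles). The Gas5 value for mECC against normal libraries is -0.17 with TMM factors and 0.07 with library totals.

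Per unit of transcript length, Gas5 was the most abundant of the 10 in each group, at 394 ± 13.1 TPM in HPmECC, 302 ± 13.8 TPM in mECC and 291 ± 12.6 TPM in normal libraries. TPM is a level scaled to both transcript length and library. Pvt1 had the lowest mean TPM of the 10, at 12.4 ± 0.858 TPM in HPmECC, 10.1 ± 1.36 TPM in mECC and 7.29 ± 1.20 TPM in normal libraries. Dancr was next above it, and the TPM ranges of Pvt1 and Dancr overlapped in HPmECC and normal libraries. Snhg8 was second to Gas5 in HPmECC at 128 ± 5.13 TPM, while in normal libraries it averaged 52.8 ± 1.76 TPM and Neat1 was second at 119 ± 5.10 TPM. The Malat1 level was 31.5 ± 3.6 TPM in HPmECC, 25.1 ± 7.03 TPM in mECC and 60.6 ± 9.81 TPM in normal libraries.

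Pvt1 rose stepwise over the groups and was highest in HPmECC. The gene spans 340111 bases on the plus strand of chromosome 15 (GRCm38, 62037986 to 62378096) and has 10 annotated transcripts of 501 to 3319 bases. Its level was 11.3, 9.58, 10.2 and 9.72 CPM in HPmECC, 6.97, 7.89, 7.47 and 8.51 in mECC, and 5.28, 5.40, 6.12 and 4.32 in normal libraries. No 2 groups overlapped. It was higher in HPmECC than in mECC by 0.40 ± 0.09 on the log2 scale (edgeR adjusted p = 0.000927), higher in mECC than in normal libraries by 0.55 ± 0.11 (edgeR adjusted p = 0.000103) and higher in HPmECC than in normal libraries by 0.96 ± 0.10 (edgeR adjusted p = 7.82e-08), a 1.94-fold difference. These values rest on 195 to 268 counts per library in HPmECC, 163 to 217 in mECC and 78 to 111 in normal libraries.

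Myc, the transcription factor gene that ends 47.6 kb before Pvt1 on the same strand, did not follow it. Its level was 257, 248, 258 and 302 CPM in HPmECC, 62.1, 59.9, 57.2 and 58.6 in mECC, and 117, 107, 113 and 107 in normal libraries. Myc was thus highest in HPmECC and lowest in mECC, with no overlap between groups. Its log2 fold change was 2.16 ± 0.05 for HPmECC against mECC (edgeR adjusted p = 9.14e-17), -0.90 ± 0.05 for mECC against normal libraries (edgeR adjusted p = 1.16e-11) and 1.26 ± 0.05 for HPmECC against normal libraries (edgeR adjusted p = 1.92e-14). Counts from the Myc locus and from overexpressed Myc cannot be told apart here, so these are total Myc levels. Between mECC and normal libraries Pvt1 was higher and total Myc lower.

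That difference was measured as the ratio of Pvt1 to Myc CPM within each library, which no scaling factor can change. Pvt1 stood at 4.41%, 3.86%, 3.97% and 3.22% of the Myc level in HPmECC, at 11.2%, 13.2%, 13.1% and 14.5% in mECC, and at 4.51%, 5.06%, 5.39% and 4.04% in normal libraries. The mECC libraries were all above the others, and the HPmECC and normal ranges overlapped. The log2 ratio was lower in HPmECC than in mECC by a difference of -1.75 and higher in mECC than in normal libraries by 1.45. Both had p = 0.0286 in a two-sided exact permutation test, the smallest that 4 against 4 allows. Their adjusted p was 0.0367 over the 9 ratio tests run (exact). The pairs were chosen after their values were seen, which the adjustment does not cover, so the ratio p-values here and below are descriptive. For HPmECC against normal libraries the difference was -0.30, with exact permutation p = 0.0571 and adjusted p = 0.0643. With TPM in place of CPM that last difference was -1.18 with exact permutation p = 0.0286. TPM divide by lengths that themselves differed, for both genes. The effective length of Myc implied by its counts and FPKM averaged 1250 ± 17 bases in HPmECC, 1696 ± 38 bases in mECC and 1799 ± 39 bases in normal libraries. That of Pvt1 averaged 1338 ± 126 bases in HPmECC, 1305 ± 117 bases in mECC and 1043 ± 39 bases in normal libraries.

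**Figure D3:**
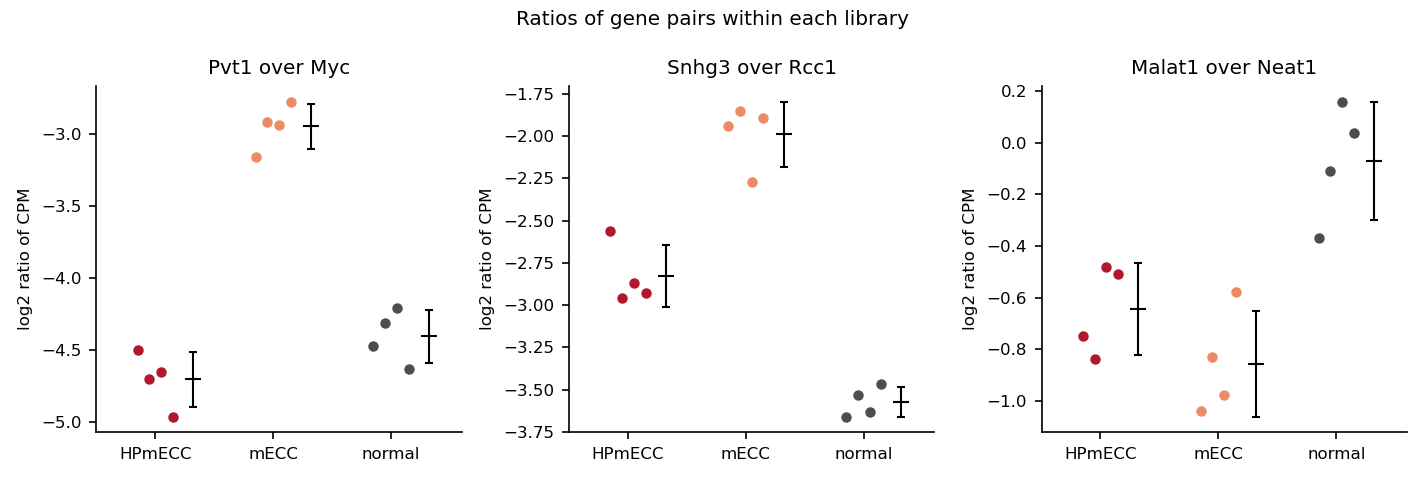
Log2 ratio of CPM within each library for Pvt1 over Myc, Snhg3 over Rcc1 and Malat1 over Neat1, with mean and SD beside each group of 4 points; the vertical axes do not start at a common value. The 4 mECC libraries stand above all others for Pvt1 over Myc and for Snhg3 over Rcc1.

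Malat1 and Neat1, the nuclear RNAs, lie on the minus strand of chromosome 19 at 5795690 to 5802672 and 5824708 to 5845478 (GRCm38). Both were lower in the 2 lines than in normal libraries, and Malat1 more so. The Malat1 level was 126, 95.3, 127 and 119 CPM in HPmECC, 77.2, 74.3, 96.3 and 87.6 in mECC, and 199, 224, 291 and 282 in normal libraries. Every normal library was above every library of either line, while 1 HPmECC library fell inside the mECC range. Malat1 was 2.97-fold lower in mECC than in normal libraries (log2 fold change -1.57 ± 0.11, edgeR adjusted p = 1.27e-10) and 2.14-fold lower in HPmECC than in normal libraries (-1.10 ± 0.11, edgeR adjusted p = 1.99e-08). Between the lines it was higher in HPmECC by 0.48 ± 0.11 (edgeR adjusted p = 0.00106). That call was lost in limma on log2(TPM + 1), where the value was 0.35 with limma adjusted p = 0.0892, and the highest adjusted p over its 21 alternatives was 0.0903.

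Neat1 had 212, 170, 178 and 170 CPM in HPmECC, 159, 132, 190 and 131 in mECC, and 257, 242, 260 and 274 in normal libraries. Normal libraries were again above both lines, whose ranges overlapped. The log2 fold change was -0.75 ± 0.09 for mECC against normal libraries (edgeR adjusted p = 3.64e-07) and -0.50 ± 0.09 for HPmECC against normal libraries (edgeR adjusted p = 5.42e-05). Between the lines Neat1 was higher in HPmECC by 0.25 ± 0.09 (edgeR adjusted p = 0.0207), a call that single libraries decided. Without mECC replicate 2 or 4 the log2 fold change was 0.19 with edgeR adjusted p = 0.0864 and 0.0867, and without HPmECC replicate 1 it was 0.18 with edgeR adjusted p = 0.099, the highest over its 21 alternatives. DESeq2 gave 0.24 with adjusted p = 0.0805, and library totals gave 0.21 with edgeR adjusted p = 0.0524.

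Within a library, Malat1 counted 59.3%, 55.9%, 71.7% and 70.1% of the Neat1 level in HPmECC, 48.7%, 56.2%, 50.8% and 66.8% in mECC, and 77.6%, 92.6%, 112% and 103% in normal libraries, in CPM and so not per length. Both lines lay below all normal libraries. The log2 ratio differed by -0.79 between mECC and normal libraries and by -0.58 between HPmECC and normal libraries, each with exact permutation p = 0.0286 and adjusted p = 0.0367 over the 9 tests. It differed by 0.21 between HPmECC and mECC, with exact permutation p = 0.171. With TPM the difference between mECC and normal libraries was -0.73 with exact permutation p = 0.0857. Frmd8, a protein-coding gene 4.2 kb upstream of Neat1, was also lower in mECC than in normal libraries, by a log2 fold change of -0.53 ± 0.04 (edgeR adjusted p = 5.71e-10).

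Messengers for proteins that build paraspeckles around Neat1 were measured as a list of 16 genes. In mECC against normal libraries 14 were higher and 2 lower, their median log2 fold change being 0.36 against -0.02 over all tested genes, and in HPmECC against normal libraries the counts were also 14 and 2, with a median of 0.46. Of all tested genes 42.1% and 43.0% were higher in these comparisons. With library totals 14 were higher and 1 lower in each. Between the lines 6 were higher and 4 lower in HPmECC, with a median of 0.03, and 4 and 4 with library totals. Of all tested genes 33.8% were higher and 34.5% lower there. Hnrnpa1, an RNA-binding protein that acts in splicing, averaged 1140 ± 24.9 CPM in HPmECC, 865 ± 9.18 in mECC and 508 ± 8.42 in normal libraries, and rose in both lines (log2 fold change 1.17 and 0.77). Fam98a averaged 99.1 ± 2.63 CPM in HPmECC, 110 ± 1.81 in mECC and 61.1 ± 2.68 in normal libraries. Neat1 was thus lower in both lines while most of these messengers were higher.

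Of 16 genes for nuclear speckle proteins, the compartment in which Malat1 resides, 10 were higher in HPmECC than in mECC and 3 lower (median log2 fold change 0.15), or 9 and 4 with library totals. In mECC against normal libraries 5 were higher and 9 lower, a split that turned to 10 higher and 3 lower with library totals. In HPmECC against normal libraries 7 were higher and 7 lower, and with library totals 10 and 3. The 13, 14 and 14 of 16 called in these comparisons stand beside 68.3%, 86.3% and 86.4% of all tested genes. Between the lines 33.8% of all tested genes were higher and 34.5% lower. The splicing factor gene Srsf5 averaged 154 ± 4.97 CPM in HPmECC, 122 ± 4.39 in mECC and 226 ± 8.10 in normal libraries, lower in both lines, whereas the RNA helicase gene Ddx39b averaged 239 ± 7.75 CPM in HPmECC, 243 ± 4.11 in mECC and 132 ± 2.96 in normal libraries, higher in both.

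Among the snoRNA hosts, Gas5 (chromosome 1, 161034422 to 161038539, plus strand) holds 10 rows typed as snoRNA genes, of which 1 is named as a microRNA and a pair is Snord80 listed at 1 place. Its level was 95.5, 91.5, 87.6 and 92.8 CPM in HPmECC, 72.7, 66.2, 69.3 and 66.9 in mECC, and 79.6, 73.4, 79.9 and 77.1 in normal libraries. No 2 groups overlapped, with HPmECC highest and mECC lowest. Gas5 was higher in HPmECC than in mECC by 0.42 ± 0.04 (edgeR adjusted p = 1.24e-08) and higher in HPmECC than in normal libraries by 0.25 ± 0.04 (edgeR adjusted p = 7.72e-06). For mECC against normal libraries the log2 fold change was -0.17 ± 0.04 (edgeR adjusted p = 0.000472), but with library totals it was 0.07 (edgeR adjusted p = 0.116), so its direction depends on the scaling; the highest adjusted p over its 21 alternatives was 0.229. Zbtb37, which overlaps the start of Gas5 on the opposite strand, averaged 17.2 ± 1.04 CPM in HPmECC, 18.2 ± 0.734 in mECC and 23.9 ± 0.909 in normal libraries. Because no strand setting is given, reads of the overlap cannot be told apart.

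Snhg8 had the largest rise of the 10 over normal libraries in HPmECC. This short gene (chromosome 3, 123507552 to 123508404, minus strand) holds 1 annotated snoRNA gene. Its level was 21.2, 19.6, 20.9 and 19.9 CPM in HPmECC, 16.9, 17.5, 16.8 and 16 in mECC, and 9.68, 10.2, 9.92 and 9.64 in normal libraries. The 3 groups did not overlap and formed tight clusters. The log2 fold change was 0.28 ± 0.05 for HPmECC against mECC (edgeR adjusted p = 0.000109), 0.77 ± 0.06 for mECC against normal libraries (edgeR adjusted p = 4.59e-10) and 1.04 ± 0.06 for HPmECC against normal libraries (edgeR adjusted p = 3.12e-12), a 2.06-fold difference. Prss12, a serine protease gene whose end lies 955 bases from that of Snhg8 on the opposite strand, averaged 0.208 ± 0.134 CPM in HPmECC, 1.23 ± 0.237 in mECC and 69.9 ± 2.47 in normal libraries. It was lower in mECC than in normal libraries by a log2 fold change of -5.80 ± 0.10 (edgeR adjusted p = 2.17e-20), the opposite direction to Snhg8.

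Snhg3 (chromosome 4, 132348014 to 132353686, minus strand) was the 1 RNA of the set that was called lower in HPmECC than in mECC. Its level was 9.34, 7.51, 7.92 and 7.59 CPM in HPmECC, 10.3, 10, 8.73 and 9.45 in mECC, and 5.08, 4.93, 4.96 and 5.65 in normal libraries. Both lines were above all normal libraries, and 1 HPmECC library reached into the mECC range. Snhg3 was higher by 0.90 ± 0.10 in mECC (edgeR adjusted p = 6.43e-08) and by 0.64 ± 0.10 in HPmECC (edgeR adjusted p = 7.26e-06) than in normal libraries. The difference between the lines was -0.25 ± 0.09 (edgeR adjusted p = 0.0151). Without HPmECC replicate 2 it was -0.22 with edgeR adjusted p = 0.0552, the highest over its 20 alternatives, and without HPmECC replicate 4 it was -0.22 with edgeR adjusted p = 0.051.

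Rcc1, the gene for a chromatin-bound exchange factor of the Ran GTPase, overlaps Snhg3 on the same strand. The counting divides reads that fit both genes by estimated abundance, so the 2 values are uncertain. Rcc1 averaged 57.2 ± 1.57 CPM in HPmECC, 38.2 ± 3.22 in mECC and 61.3 ± 3.13 in normal libraries. Snhg3 stood at 17.0%, 12.8%, 13.7% and 13.1% of the Rcc1 level in HPmECC, at 26.1%, 27.7%, 20.8% and 27% in mECC, and at 7.90%, 8.67%, 8.07% and 9.02% in normal libraries. The 3 groups did not overlap: the share was highest in mECC and lowest in normal libraries. The log2 ratio differed by -0.84 between HPmECC and mECC, by 1.59 between mECC and normal libraries and by 0.74 between HPmECC and normal libraries, each with exact permutation p = 0.0286 and adjusted p = 0.0367 over the 9 tests.

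Snhg5, also a snoRNA host, spanned 13.3 to 16.2 CPM in HPmECC, 10.8 to 13.4 in mECC and 10 to 10.9 in normal libraries. It was higher in HPmECC than in mECC by 0.35 ± 0.08 (edgeR adjusted p = 0.00049), with ranges that overlap, and higher than in normal libraries by 0.52 ± 0.08 (edgeR adjusted p = 8.34e-06), with none. For mECC against normal libraries the value was 0.17 ± 0.08 (edgeR adjusted p = 0.0649), and it passed the threshold without mECC replicate 2 (0.22, edgeR adjusted p = 0.0267), without HPmECC replicate 4 (0.17, edgeR adjusted p = 0.0439) and with library totals (0.41, edgeR adjusted p = 0.000169). Over its 21 alternatives the adjusted p reached 0.231.

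Snhg12, with 5 snoRNA rows of which a pair is Snora16a at 1 place, spanned 10.4 to 10.9 CPM in HPmECC, 8.04 to 9.49 in mECC and 8.65 to 9.56 in normal libraries. All 4 HPmECC libraries were above the rest, and the other groups overlapped. Snhg12 was higher in HPmECC than in mECC by 0.31 ± 0.07 (edgeR adjusted p = 0.000962) and than in normal libraries by 0.24 ± 0.07 (edgeR adjusted p = 0.00628). The value for mECC against normal libraries was -0.07 ± 0.08 (edgeR adjusted p = 0.412, 95% interval -0.23 to 0.09) and 0.17 with library totals (edgeR adjusted p = 0.0406), so no direction can be given; over its 21 alternatives the adjusted p lay between 0.00791 and 0.835. Trnau1ap, a selenoprotein synthesis gene whose end lies 739 bases from that of Snhg12, averaged 34.2 ± 1.43 CPM in HPmECC, 28.3 ± 1.38 in mECC and 23.4 ± 1.3 in normal libraries, and was higher in both lines.

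Snhg1, with 8 annotated snoRNA genes, spanned 30.6 to 35.9 CPM in HPmECC, 29.0 to 32.3 in mECC and 28.5 to 31.4 in normal libraries, and the ranges overlapped in all 3 comparisons. It was higher in HPmECC than in mECC by 0.16 ± 0.05 (edgeR adjusted p = 0.0123) and than in normal libraries by 0.17 ± 0.05 (edgeR adjusted p = 0.00792). With library totals the first value was 0.11 (edgeR adjusted p = 0.068, the highest of its 21 alternatives). Between mECC and normal libraries the value was 0.01 ± 0.06 (edgeR adjusted p = 0.862, 95% interval -0.11 to 0.13), against 0.25 with library totals (edgeR adjusted p = 0.000387); its alternatives reached an adjusted p of 0.965. It was -0.02 without normal replicate 2 and -0.01 without mECC replicate 3 (edgeR adjusted p = 0.748 and 0.831), so no direction can be given. Slc3a2, the amino acid transporter subunit gene whose start lies 106 bases from that of Snhg1, averaged 211 ± 24.1 CPM in HPmECC, 142 ± 4.79 in mECC and 195 ± 4.43 in normal libraries, and was lower in mECC than in normal libraries by a log2 fold change of -0.46 ± 0.06 (edgeR adjusted p = 4.73e-07).

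Dancr, studied for a part in keeping progenitor cells undifferentiated, spanned 3.65 to 4.29 CPM in HPmECC, 4.17 to 5.12 in mECC and 2.96 to 4.20 in normal libraries, so all groups overlapped. It was the sparsest of the 10, with 57 to 86 counts in normal libraries. Its log2 fold change was -0.18 ± 0.12 for HPmECC against mECC (edgeR adjusted p = 0.19, 95% interval -0.42 to 0.06) and 0.11 ± 0.13 for HPmECC against normal libraries (edgeR adjusted p = 0.424). With library totals the second value was 0.31 (edgeR adjusted p = 0.0338), and over its 20 alternatives the adjusted p lay between 0.00432 and 0.972. Dancr was higher in mECC than in normal libraries by 0.29 ± 0.13 (edgeR adjusted p = 0.0384), a call lost without normal replicate 2 (0.18, edgeR adjusted p = 0.161, the highest of its 20 alternatives), mECC replicate 2 (0.24, edgeR adjusted p = 0.111) or mECC replicate 3 (0.28, edgeR adjusted p = 0.0748). DESeq2 gave 0.27 with adjusted p = 0.0832, and median-of-ratios factors gave 0.27 with edgeR adjusted p = 0.055. Its neighbour Usp46, a deubiquitinase gene 24.6 kb away, averaged 57.8 ± 2.39 CPM in HPmECC, 65.3 ± 1.3 in mECC and 130 ± 4.86 in normal libraries.

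The snoRNAs themselves were almost unmeasured. The table has 29 rows typed as snoRNA genes inside 7 of the 10 genes, 1 of them named as a microRNA and 2 pairs at 1 place each, and 25 of them were at 0 in all 12 libraries. The other 4 held 38 counts in all, 11 in HPmECC, 12 in mECC and 15 in normal libraries, mostly Snora73a and Snora73b in Snhg3. Host levels here therefore give no level of the snoRNAs.

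Messengers for proteins of snoRNA particles and for their assembly factors were measured as a list of 19 genes. In HPmECC against mECC 15 were higher and 1 lower (median log2 fold change 0.36), beside 33.8% higher and 34.5% lower among all tested genes. Library totals gave the same counts. Ruvbl2, a helicase subunit of the assembly machinery, averaged 136 ± 5.31 CPM in HPmECC, 73.4 ± 3.05 in mECC and 87.6 ± 3.21 in normal libraries. Dkc1, the pseudouridine synthase of box H/ACA particles, averaged 79.2 ± 3.57 CPM in HPmECC and 47.6 ± 3.41 in mECC (log2 fold change 0.74 ± 0.05). Znhit6, an assembly factor, was the gene called lower, by a log2 fold change of -1.12 ± 0.05. In mECC against normal libraries 5 of the 19 were higher and 11 lower, and with library totals 9 and 6, so no common direction can be given there. In HPmECC against normal libraries 10 were higher and 6 lower, and with library totals 13 and 2. The 16 of 19 called in each comparison with normal libraries are near the shares of all tested genes, 86.3% and 86.4%.

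Translation genes with a C and T tract at their start, outside the ribosome itself, gave a like count between the lines: 14 of 15 were higher in HPmECC than in mECC and 0 lower by edgeR, with a median of 0.27, beside the same 33.8% and 34.5%, and library totals gave the same counts. Pabpc1, the poly(A)-binding protein gene, averaged 1720 ± 65.3 CPM in HPmECC and 1270 ± 18.2 in mECC. Eif4b, a translation initiation factor gene, averaged 897 ± 27 CPM in HPmECC and 610 ± 22.0 in mECC. In mECC against normal libraries 6 were higher and 7 lower, against 10 and 4 with library totals. In HPmECC against normal libraries 11 were higher and 4 lower, against 12 and 2 with library totals. The 13 and 15 of 15 called in these comparisons with normal libraries stand beside 86.3% and 86.4% of all tested genes.

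Genes for factors of nonsense-mediated decay, the pathway that degrades many host transcripts, were called about as often as all tested genes between the lines. Of 20 genes 15 were called there, against 68.3% of all tested genes, and 8 were higher and 7 lower in HPmECC than in mECC, with a median of 0.04. In mECC against normal libraries 9 were higher and 7 lower, and 13 and 4 with library totals, where 86.3% of all tested genes were called. In HPmECC against normal libraries, where the share was 86.4%, 10 were higher and 10 lower, and 11 and 4 with library totals. The helicase gene Dhx34 averaged 22.2 ± 3.16 CPM in HPmECC, 22.4 ± 0.9 in mECC and 12 ± 0.921 in normal libraries.

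Of 14 further snoRNA hosts, 12 matched a row and 10 were tested. In HPmECC against mECC 5 were higher and 2 lower, in mECC against normal libraries 5 and 3, and in HPmECC against normal libraries 6 and 3. The 7, 8 and 9 of 10 called are near the shares of all tested genes, 68.3%, 86.3% and 86.4%. Snhg6 averaged 21 ± 1.49 CPM in HPmECC, 14.7 ± 1.90 in mECC and 23.4 ± 1.48 in normal libraries, and Epb41l4aos averaged 11.3 ± 0.328 CPM in HPmECC, 6.49 ± 0.0972 in mECC and 6.79 ± 0.476 in normal libraries. Snhg18 went the other way between the lines, at 6.67 ± 0.644 CPM in HPmECC and 11.4 ± 0.709 in mECC.

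Among 33 other long noncoding RNAs, 31 matched a row and 21 were tested. In HPmECC against mECC 10 were higher and 4 lower, in mECC against normal libraries 8 and 11, and in HPmECC against normal libraries 9 and 11. That is 14, 19 and 20 of 21 called, beside 68.3%, 86.3% and 86.4% of all tested genes. Xist, the RNA that silences an X chromosome in females, averaged 0.0409 ± 0.0604 CPM in HPmECC, 0.0986 ± 0.0548 in mECC and 216 ± 22.8 in normal libraries. H19, an imprinted growth-related RNA, averaged 59.1 ± 9.31 CPM in HPmECC, 59.2 ± 2.57 in mECC and 1.64 ± 0.598 in normal libraries. Rian, of the imprinted Dlk1 to Dio3 region, averaged 0.564 ± 0.114 CPM in HPmECC, 0.146 ± 0.0766 in mECC and 22.0 ± 3.95 in normal libraries. Log2 fold changes of the 10 RNAs, from -1.57 to 1.04, were small beside these, which were named for their large changes. Others of the list changed less. Tug1 had -0.72 in HPmECC against mECC, 0.53 in mECC against normal libraries and -0.19 in HPmECC against normal libraries.

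**Figure D4:**
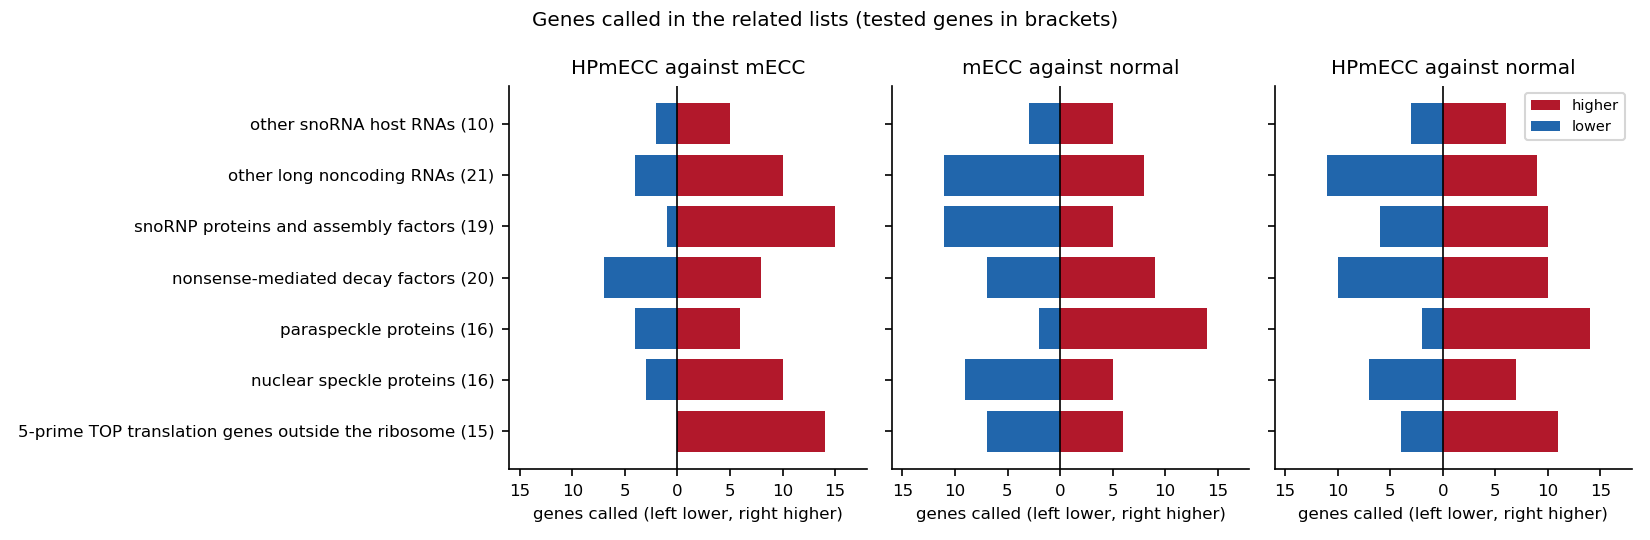
Number of genes called higher (right) and lower (left) in each related gene list, for the 3 comparisons, with the tested genes of each list in brackets. In HPmECC against mECC, 15 of 19 snoRNP genes and 14 of 15 translation genes were higher, and in mECC against normal libraries 14 of 16 paraspeckle genes were higher.

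Isoform use was examined through the effective transcript length that the authors' counts and FPKM imply for each gene, which is shorter than the transcript by about 1 fragment. It can thus move with the fragment lengths of a library as well as with isoform use, and the part of each was not tested. For Pvt1 the implied length was 1478, 1374, 1326 and 1174 bases in HPmECC, 1355, 1447, 1205 and 1213 bases in mECC, and 1066, 1079, 992 and 1036 bases in normal libraries. Both lines lay above all normal libraries, by 28.2% in HPmECC and 25.1% in mECC, each with exact permutation p = 0.0286. Of 30 such tests 10 had this p, the smallest that 4 against 4 allows, and 0 passed after Benjamini-Hochberg adjustment over the 30 (lowest adjusted p = 0.0857, exact). With 10 tests at the smallest p, 0 of the 30 could pass, however large the difference. The adjustment therefore cannot decide whether lengths differed. Implied lengths did not overlap for 3 of the 10 RNAs in HPmECC against mECC, 2 in mECC against normal libraries and 5 in HPmECC against normal libraries, against 8.60%, 13.1% and 14.4% of the 13838 tested genes with a length in every library.

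Neat1 had an implied length of 2996 ± 39 bases in HPmECC, 3200 ± 53 bases in mECC and 3119 ± 43 bases in normal libraries, near the 3004-base isoform and far from the 20771-base one. HPmECC lay below both other groups without overlap, by differences of -6.37% and -3.94%, each with exact permutation p = 0.0286. Snhg5 averaged 742 ± 12 bases in HPmECC, 799 ± 24 bases in mECC and 781 ± 9 bases in normal libraries, and Snhg8 averaged 258 ± 1 bases in HPmECC, 258 ± 2 bases in mECC and 269 ± 1 bases in normal libraries. Dancr averaged 440 ± 14 bases in HPmECC and 506 ± 22 bases in normal libraries, a difference of -13.0% (exact permutation p = 0.0286). For Malat1 the mean was 6025 ± 543 bases in HPmECC, 5888 ± 1107 bases in mECC and 5887 ± 209 bases in normal libraries, and mECC replicate 4 stood at 4266 bases. In that library the Malat1 TPM was 34.7, the highest of its group, although its CPM of 87.6 was not.

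**Figure D5:**
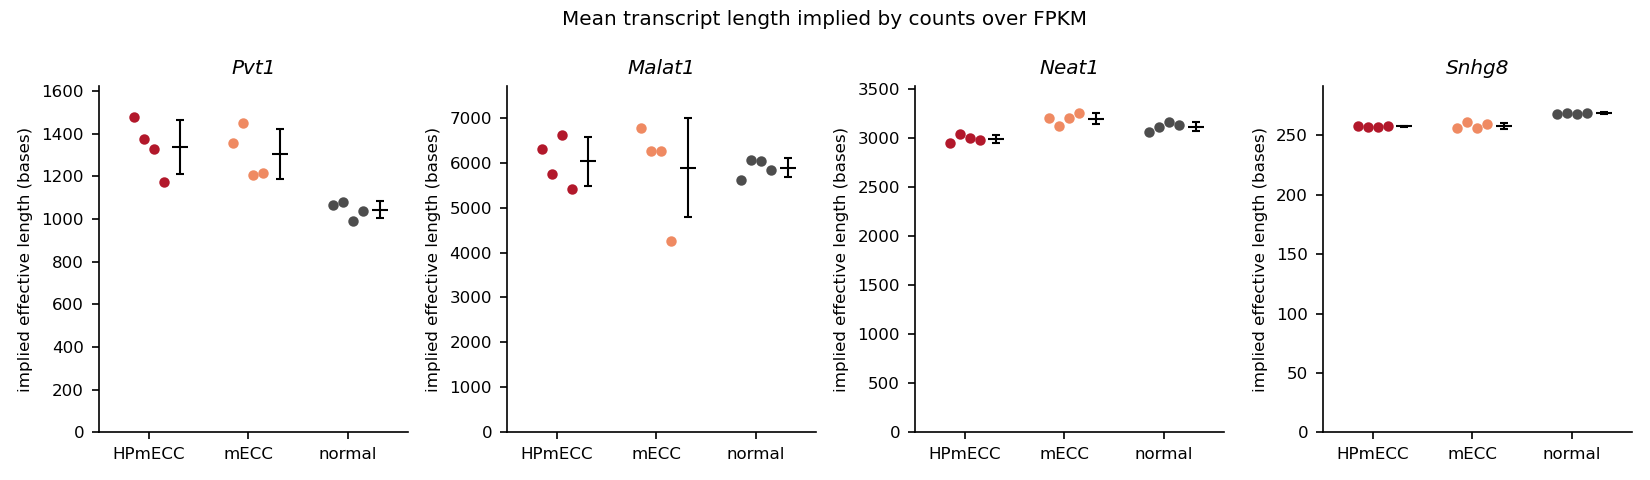
Effective transcript length in bases implied by counts over FPKM for Pvt1, Malat1, Neat1 and Snhg8 in each library (points), with mean and SD beside each group of 4 and axes from 0. Pvt1 libraries of both lines lie above all normal libraries, and 1 mECC library of Malat1 stands at 4266 bases.

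For 4 of the RNAs, the genes whose 3 log2 fold changes lay nearest by Euclidean distance were looked up among 10515 genes. They were Cox15, Med30 and Smpdl3b for Pvt1, at distances of 0.02, 0.03 and 0.03. Mpp7, Synj2bp and Samd12 were nearest to Malat1, and Atp5b, Pafah1b3 and Zmym2 were nearest to Neat1. Dctd, Nup43 and Stom were nearest to Gas5. Med30 averaged 33.5 CPM in HPmECC, 25.1 in mECC and 16.9 in normal libraries, with log2 fold changes of 0.42, 0.56 and 0.98 beside the 0.40, 0.55 and 0.96 of Pvt1. With 3 values per gene from 12 shared libraries, such likeness is a description.

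Spread between libraries was wider than for the median gene in all 3 groups for Malat1, Pvt1, Snhg3 and Dancr. For Neat1 and Snhg5 it was wider in both lines. The coefficient of variation of Malat1 was 12.7% in HPmECC, 12% in mECC and 17.8% in normal libraries, where the medians over all tested genes were 6.08%, 5.27% and 6.17%. Neat1 varied by 10.9% in HPmECC and 18.1% in mECC, and by 5.07% in normal libraries. Gas5 and Snhg8 were below the median in all 3 groups, at 3.55% and 3.77% in HPmECC, 4.27% and 3.81% in mECC, and 3.86% and 2.75% in normal libraries.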

How the data were processed

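The authors deposited estimated counts, TPM and FPKM per gene. The submitters' processing notes name Trim Galore, STAR 2.6.1a, RSEM 1.3.1 and GRCm38, with annotation release and strand setting not given in the sources used here. Whole numbers fill the deposited table of estimated counts, and RSEM divides reads shared by overlapping genes. Of 55385 rows, 55144 matched GENCODE M21, used for positions. Group differences come from edgeR 4.0.16 under R 4.3.3 (quasi-likelihood, TMM factors, filterByExpr at 10 counts, 1 coefficient per group, all 12 libraries); SE come from the F statistic and 95% intervals assume normality. The common biological coefficient of variation was 4.27%. Alternatives used DESeq2 1.42.0, limma 3.58.1 on deposited TPM, other filters, scalings and left-out libraries. Deposited FPKM served for implied lengths: counts divided by FPKM and library total. The 10 RNAs and the gene lists were chosen with earlier results of these data known. Named besides them were nearest protein-coding neighbours within 50 kb (a selection of them is described), up to 3 called genes per list and comparison of at least 5 CPM with the largest change, and 3 nearest patterns (at least 10 CPM in 1 group). The 3 ratios, and the marker and neighbour values, the Myc length included, that fall outside this rule were chosen after their values were seen. Snhg4, Snhg7, Cytor and Rmrp were not analysed here, and some neighbour and list genes are not reported here.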

Additional observations from a re-analysis of the deposited data

How the results depend on the processing

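Over 621 refits of a noncoding RNA and comparison, 580 kept direction and side of the threshold. With direction kept, 13 passed it newly and 18 no longer did, and 10 turned direction on either side of it. Of the 360 that left out 1 library, these counts were 348, 2, 8 and 2. Those that turned are in mECC against normal libraries. Snhg1, not called, was -0.01 with median-of-ratios factors and in DESeq2, and -0.02 to 0.04 with a library left out. Gas5 and Snhg12 were 0.07 and 0.17 with library totals, 0.05 and 0.19 in limma on log2(TPM + 1), and 0.05 and 0.20 on log2(TPM + 0.1). In each of these refits Snhg12 newly passed the threshold and Gas5 no longer did. In that comparison 7 RNAs were higher with library totals and in both limma fits, and 1 with at least 10 CPM in 4 libraries, where fewer were tested. That filter left 0 lower in HPmECC against mECC, and leaving out a library gave 0 to 1. Requiring 2-fold left 0 higher, 0 lower and 2465 genes in HPmECC against mECC, 0, 1 and 6290 in mECC against normal libraries, and 1, 1 and 6345 in HPmECC against normal libraries. Same-numbered libraries deviated together by correlations of -0.016 to 0.077, so the numbers do not pair them; with the replicate number as a block, 10321 genes were called in HPmECC against mECC, 13123 in mECC against normal libraries and 13146 in HPmECC against normal libraries, and Dancr in mECC against normal libraries was 0.28 (edgeR adjusted p = 0.0609). Without a filter on low counts, adjusted p-values of Malat1 and Neat1 were far smaller (Malat1, mECC against normal libraries, edgeR adjusted p = 5.33e-152), and those of Snhg3, Snhg8, Snhg12 and Dancr in HPmECC against mECC were larger; the cause of this and of the other changes was not tested. Lengths from TPM gave 0 called, under the same limit on the smallest p. Depth limits Dancr, Snhg3 and Pvt1 most, at 57 to 86, 75 to 123 and 78 to 111 counts in normal libraries.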
